A study of Mus musculus with 18 samples.

Results

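Podocyte genes were followed through unilateral ischemia and reperfusion (UIR) of the mouse kidney, an injury in which the blood supply of the right kidney is shut with a clamp and then restored. The genes were chosen by name as established podocyte markers, and 7 of the 20825 genes in the deposited table are described here, namely Nphs1 (Entrez 54631), Kirrel (170643), Podxl (27205), Ptpro (19277), Synpo (104027), Wt1 (22431) and Tcf21 (21412). The libraries are from C57BL/6 mice whose age is given as 11 weeks, 3 biological replicates in each of 6 groups. UIR mice had their right renal pedicle clamped for 45 minutes with the left kidney left in place, and were killed 1, 3 or 21 days later. Sham-operated mice were killed on the same days. The labels name neither the sex of the mice nor the kidney that was sequenced, and whole kidney tissue was used, so fewer cells of a type and less RNA per cell cannot be told apart. No allele or transgene is given for any group.

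Podocytes are the epithelial cells that wrap the capillaries of the glomerulus with interlocking foot processes. The gaps between foot processes are bridged by the slit diaphragm, whose adhesion proteins nephrin and Neph1 hold the filter together and signal to the actin skeleton inside the process. A negatively charged surface coat, a set of actin-binding proteins and a small circuit of transcription factors complete the cell's identity. Podocytes are terminally differentiated and are replaced poorly after loss, and several of these transcripts are made in other kidney cells too, which matters for a whole-organ measurement.

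Levels are FPKM (fragments mapped, scaled by transcript length and by the library's total) as deposited, and changes were tested on log2(FPKM + 1) with limma across all 14716 genes that reached 1 FPKM in at least 3 libraries, with a threshold of 0.05 on the Benjamini-Hochberg adjusted p. All 7 podocyte genes passed that filter. Over all genes tested the median log2 fold, UIR minus sham, came to -0.03 on day 1, to 0.44 on day 3 and to 0.53 on day 21, and the later folds of the podocyte genes are also given relative to it. Podocyte transcripts stood apart in UIR day-1 replicate 3, where all 7 genes lay above the other libraries of that group, with a summed level of 224.5 FPKM, against 104.8 and 89 FPKM in the other 2. That library also had the highest sum of injured tubule genes, 25821.2 FPKM against 12244.2 and 10661.6 FPKM, and the lowest sum of proximal tubule genes, 8412.5 FPKM against 13813.5 and 12180.1 FPKM. Whether these differences have a part in the podocyte values was not tested. Day-1 folds of the 7 genes are given with and without it. Day-1 sham kidneys also differed from later sham kidneys, with 42.5% of genes past the threshold between sham day 3 and sham day 1, so a second control is given for day 1.

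**Figure D1:**
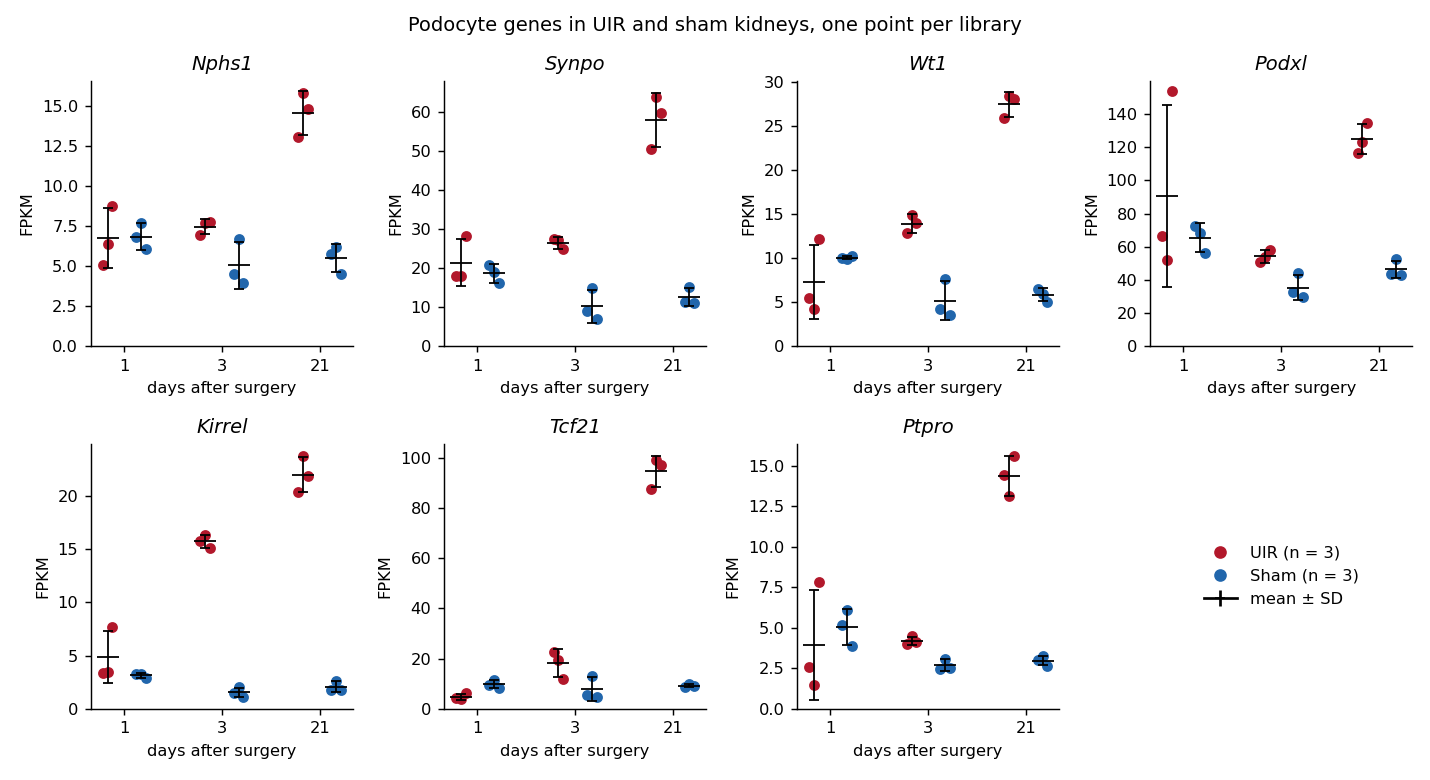
FPKM of the 7 podocyte genes (vertical axes, linear, from 0) in each of the 18 libraries by days after surgery. Red points are UIR and blue points sham libraries, 3 per group, with the mean ± SD in black. All 3 UIR libraries of day 21 lie above the 3 sham libraries of that day for every gene, and at day 1 the UIR libraries spread widely for Podxl, Wt1 and Ptpro.

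Nphs1 encodes nephrin, the slit diaphragm adhesion protein of the immunoglobulin superfamily. At day 1 it had 5.07, 6.38 and 8.75 FPKM in UIR kidneys, against 6.81, 7.68 and 6.04 FPKM in sham kidneys. The day-3 levels were 6.94, 7.66 and 7.78 FPKM in UIR kidneys, against 4.52, 6.71 and 3.94 FPKM in sham kidneys. By day 21 they reached 13.06, 15.8 and 14.79 FPKM in UIR kidneys, against 5.75, 6.21 and 4.5 FPKM in sham kidneys. The groups overlapped at day 1 and no longer did so at days 3 and 21. Nphs1 rose at day 3 (log2 fold 0.51 ± 0.17 SE, limma adjusted p = 0.015) and at day 21 (1.27 ± 0.17, limma adjusted p = 5.0e-06), while the day-1 value was -0.04 ± 0.17 (limma adjusted p = 0.85), and -0.22 without UIR day-1 replicate 3 (0.28). The day-3 rise was only 0.07 above the median of all genes. It was not called without sham day-3 replicate 1 (limma adjusted p = 0.053) or 3 (0.083) or after median-of-ratios scaling (0.8), and was -0.11 after quantile normalization (0.55).

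Kirrel encodes Neph1, which binds nephrin across the slit. It had 3.36, 3.48 and 7.67 FPKM in UIR kidneys at day 1, against 3.3, 3.26 and 2.91 FPKM in sham kidneys. At day 3 the values were 15.81, 16.35 and 15.12 FPKM in UIR kidneys, against 1.5, 2.01 and 1.13 FPKM in sham kidneys. At day 21 they were 20.44, 23.8 and 21.87 FPKM in UIR kidneys, against 1.74, 2.65 and 1.77 FPKM in sham kidneys. Kirrel had the largest increase of the 7 genes at day 3, when its mean FPKM was 10.2 times that of sham kidneys, and stayed at 10.7 times at day 21. The log2 fold was 2.73 ± 0.205 at day 3 (limma adjusted p = 6.7e-09) and 2.93 ± 0.205 at day 21 (limma adjusted p = 1.9e-09), and these effects did not differ past the threshold (difference 0.19 ± 0.29, limma adjusted p = 0.61). At day 1 the lowest UIR value lay just above the highest sham value, and the fold of 0.41 ± 0.205 missed the threshold (limma adjusted p = 0.095). It passed the threshold without UIR day-1 replicate 1 (0.59, limma adjusted p = 0.029) or 2 (0.57, 0.04) and after quantile normalization (0.46, 0.037). Without UIR day-1 replicate 3 the fold was 0.09 (limma adjusted p = 0.61).

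Podxl encodes podocalyxin, the sialomucin that gives the podocyte surface its negative charge and that vascular endothelium also carries. It was the most abundant of the 7 transcripts per length in all 18 libraries. At day 1 it had 66.21, 51.85 and 153.68 FPKM in UIR kidneys, against 72.35, 68.16 and 55.92 FPKM in sham kidneys. Day-3 values were 50.52, 54.03 and 58.16 FPKM in UIR kidneys, against 32.47, 43.84 and 29.38 FPKM in sham kidneys. At day 21 the UIR kidneys held 116.81, 122.91 and 134.77 FPKM, against 43.73, 52.39 and 42.93 FPKM in sham kidneys. UIR day-1 replicate 3 was the highest of all 18 for this gene, and the groups did not overlap at days 3 and 21. Podxl rose at day 21 (log2 fold 1.41 ± 0.27, limma adjusted p = 1.6e-04), was 0.31 ± 0.27 at day 1 (limma adjusted p = 0.34), and rose close to the threshold at day 3 (0.63 ± 0.27, limma adjusted p = 0.046). The day-3 call held in 7 of 17 alternatives. It ended after median-of-ratios scaling, where the fold was 0.10 (limma adjusted p = 0.74), and, among others, without each of the 3 UIR day-3 libraries in turn (limma adjusted p between 0.064 and 0.11). Without UIR day-1 replicate 2 the day-1 fold passed the threshold (0.625, limma adjusted p = 0.048), and without replicate 3 it was -0.15 (0.44).

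Ptpro encodes GLEPP1, a receptor tyrosine phosphatase of the foot process surface. Its day-1 levels were 2.59, 1.45 and 7.79 FPKM in UIR kidneys, against 5.17, 6.07 and 3.9 FPKM in sham kidneys. At day 3 they were 3.99, 4.47 and 4.1 FPKM in UIR kidneys, against 2.43, 3.1 and 2.52 FPKM in sham kidneys. At day 21 they were 14.42, 13.13 and 15.57 FPKM in UIR kidneys, against 3.01, 3.24 and 2.66 FPKM in sham kidneys. At day 1, UIR replicates 1 and 2 lay below and replicate 3 above all sham libraries, and the fold of -0.49 ± 0.30 missed the threshold (limma adjusted p = 0.17). Without replicate 3 Ptpro fell (-1.01, limma adjusted p = 8.4e-05). At day 3 the groups were separate but the fold of 0.50 ± 0.30 missed the threshold (limma adjusted p = 0.14), which it passed in TPM (0.034), with library weights (0.0024) and with the 6 libraries of that day alone (0.0035). Ptpro rose at day 21 (1.95 ± 0.30, limma adjusted p = 1.7e-05), more than at day 3 (difference 1.46 ± 0.425, limma adjusted p = 0.011).

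Synpo encodes synaptopodin, the actin-binding protein of the foot process. UIR kidneys had 17.94, 17.93 and 28.26 FPKM at day 1, against 20.87, 18.94 and 16.12 FPKM in sham kidneys. At day 3 they had 27.44, 27.09 and 24.78 FPKM, against 8.88, 14.82 and 6.83 FPKM in sham kidneys. At day 21 they had 50.43, 63.96 and 59.84 FPKM, against 11.25, 15.12 and 11.12 FPKM in sham kidneys. The day-1 groups overlapped (log2 fold 0.16 ± 0.22, limma adjusted p = 0.54, and -0.05, 0.88, without UIR day-1 replicate 3), and the later groups did not. Synpo rose at day 3 (1.36 ± 0.22, limma adjusted p = 3.2e-05) and at day 21 (2.14 ± 0.22, limma adjusted p = 1.5e-07). The day-21 effect exceeded that of day 3 by 0.78 ± 0.31 (limma adjusted p = 0.049), a difference that was past the threshold in 9 of 23 alternatives and was smallest without sham day-3 replicate 2 (0.50, limma adjusted p = 0.13).

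Wt1 encodes a zinc finger transcription factor that podocytes keep for life and that parietal epithelial cells of the glomerulus also express. At day 1 it had 5.5, 4.23 and 12.11 FPKM in UIR kidneys, against 10.01, 9.9 and 10.24 FPKM in sham kidneys. At day 3 it had 12.78, 14.93 and 13.92 FPKM in UIR kidneys, against 4.21, 7.66 and 3.57 FPKM in sham kidneys. At day 21 it had 25.84, 28.35 and 28.05 FPKM in UIR kidneys, against 6.51, 5.94 and 5.03 FPKM in sham kidneys. As for Ptpro, UIR libraries of day 1 lay on both sides of the sham libraries, and the fold of -0.53 ± 0.26 missed the threshold (limma adjusted p = 0.09). Without UIR day-1 replicate 3 Wt1 fell (-0.92, limma adjusted p = 8.6e-04). Wt1 rose at day 3 (1.33 ± 0.26, limma adjusted p = 2.3e-04) and day 21 (2.06 ± 0.26, limma adjusted p = 1.9e-06). The later of these effects was 0.73 ± 0.37 larger, short of the threshold (limma adjusted p = 0.12). That difference passed the threshold with a pseudocount of 5 (0.67, limma adjusted p = 0.034) and after quantile normalization (0.905, 0.041). It also did so with the compared groups alone (0.73, limma adjusted p = 0.04).

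Tcf21 encodes a basic helix-loop-helix transcription factor of podocytes that interstitial stromal cells of the kidney also make. UIR kidneys of day 1 had 4.13, 3.72 and 6.28 FPKM, against 9.52, 11.64 and 8.24 FPKM in sham kidneys. At day 3 the levels were 22.78, 19.6 and 11.89 FPKM in UIR kidneys, against 5.48, 13.23 and 4.76 FPKM in sham kidneys. At day 21 they were 87.62, 98.97 and 97.1 FPKM in UIR kidneys, against 8.87, 9.77 and 8.91 FPKM in sham kidneys. Tcf21 was the only 1 of the 7 genes whose fall at day 1 passed the threshold with all libraries (log2 fold -0.93 ± 0.28, limma adjusted p = 0.0093), and in each of the 17 alternatives the fall stayed past it (-1.12, limma adjusted p = 0.0053, without UIR day-1 replicate 3). It rose at day 3 (1.19 ± 0.28, limma adjusted p = 0.0012), where 1 UIR value lay within the sham range, and at day 21 (3.23 ± 0.28, limma adjusted p = 2.3e-08), the largest of the 7 on log2(FPKM + 1). As a ratio of mean FPKM the day-21 difference was 10.3 times, against 10.7 times for Kirrel, whose low levels are shrunk more by the added 1. Its effect grew by 2.12 ± 0.40 between days 1 and 3 (limma adjusted p = 2.6e-04) and by 2.04 ± 0.40 between days 3 and 21 (limma adjusted p = 6.6e-04).

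At day 1, then, 1 of the 7 genes was past the threshold and it was lower in UIR kidneys, where 59.6% of all genes tested were past it, 28.5% higher and 31.1% lower. The groups were separate for Kirrel, higher, and Tcf21, lower, as they were for 29.5% of all genes in the first direction and 31.7% in the second. The median log2 fold of the 7 genes was -0.04, against -0.03 over all genes. Without UIR day-1 replicate 3, 3 genes were lower (Wt1, Tcf21 and Ptpro) and none higher, with a median of -0.22, and 31.8% of all genes were lower in that fit. The choice of sham control changed which genes were called. Set against the sham libraries of days 3 and 21 together, Synpo (0.87 ± 0.19, limma adjusted p = 5.8e-04), Podxl (1.00 ± 0.235, 0.0012) and Kirrel (1.00 ± 0.18, 9.7e-05) were higher in day-1 UIR kidneys and Tcf21 was lower (-0.70 ± 0.24, 0.018), where 39.6% of all genes were higher and 32% lower. Tcf21 lost this call without UIR day-1 replicate 1 (-0.63, limma adjusted p = 0.065) or 2 (-0.57, 0.089). Without UIR day-1 replicate 3, Ptpro was also lower than in the later sham kidneys (-0.36, limma adjusted p = 0.038), against 0.16 with it (limma adjusted p = 0.6), and without replicate 2 Ptpro and Wt1 were higher (0.56, 0.043, and 0.54, 0.047).

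At day 3, 6 of 7 rose and none fell, where 75.5% of all genes tested were past the threshold, 57.6% higher and 17.9% lower, with a median log2 fold of 1.19 against 0.44 over all genes. After quantile normalization and after median-of-ratios scaling 4 of 7 rose, Nphs1 and Podxl no longer among them. Groups were separate and UIR higher for 6 of 7, all but Tcf21, and for 59.3% of all genes. Relative to the median of all genes the day-3 folds ran from 0.06 for Ptpro and 0.07 for Nphs1 to 2.29 for Kirrel. At day 21 all 7 rose, where 80.8% of all genes tested were past the threshold, 60.7% higher and 20.1% lower, with a median of 2.06 against 0.53 over all genes, and each of the 7 rises exceeded 2-fold, as did 29.6% of all genes. The groups were separate for all 7 and, with UIR higher, for 62.8% of all genes. Relative to the median of all genes these ran from 0.74 for Nphs1 to 2.70 for Tcf21, and all 7 calls held in each alternative, quantile and median-of-ratios scaling included. Those 2 scalings, which centre all genes, left 50% and 51% of day-21 calls higher, in place of 75.2%, and 52.4% and 51.3% of day-3 calls higher, in place of 76.3%. At day 3 the fold of Ptpro was also below 0 after quantile normalization (-0.17, limma adjusted p = 0.61).

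**Figure D2:**
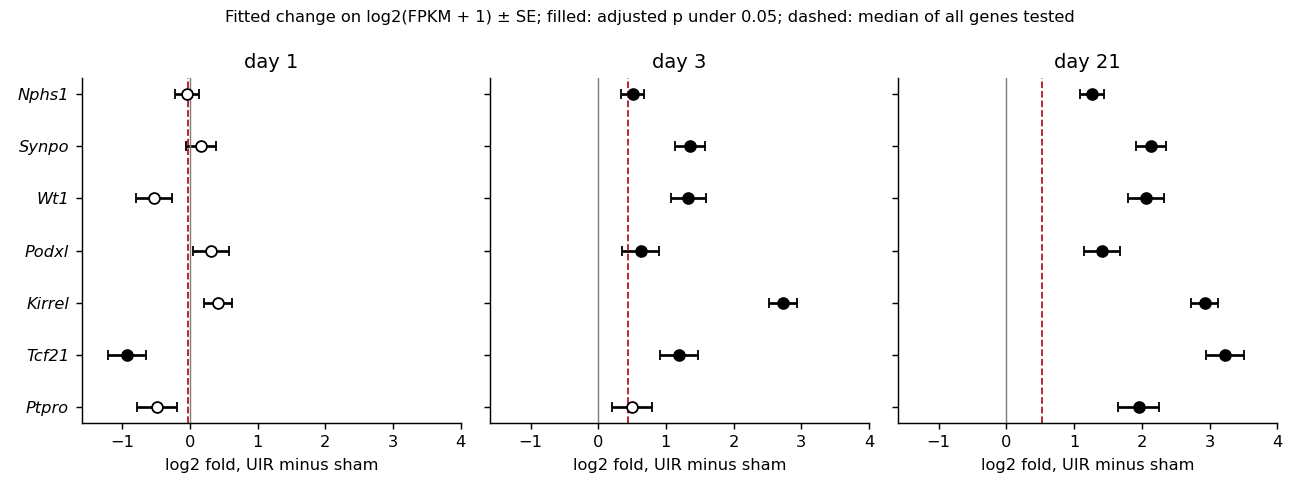
Log2 fold of each podocyte gene, UIR minus sham, on log2(FPKM + 1) with its SE at days 1, 3 and 21 (horizontal axes). Filled points were past an adjusted p of 0.05, and the dashed line is the median of all 14716 genes tested; at day 21 all 7 points lie to the right of that line.

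Between days, the UIR effect at day 21 was higher than at day 1 for all 7 genes, from 1.10 ± 0.38 for Podxl (limma adjusted p = 0.017) to 4.16 ± 0.40 for Tcf21 (2.0e-07), where 54.1% of all genes had such a higher effect. Between days 1 and 3 it was higher for 4 genes, Synpo, Wt1, Kirrel and Tcf21, where 50.1% of all genes were, and for all 7 without UIR day-1 replicate 3. Between days 3 and 21 it was higher for Nphs1, Synpo, Tcf21 and Ptpro, where 26.1% of all genes were, and for only 2 genes, Tcf21 and Ptpro, without sham day-3 replicate 2 or sham day-21 replicate 3. These contrasts share libraries with the effects they compare. The Podxl difference between days 1 and 21 fell short of the threshold without UIR day-1 replicate 2 (0.79, limma adjusted p = 0.051). After median-of-ratios scaling it also fell short (0.45, limma adjusted p = 0.3). The Synpo difference between days 1 and 3 did so too with that scaling (0.65, limma adjusted p = 0.072). Among sham kidneys, Synpo, Wt1, Podxl and Kirrel were lower at day 3 than at day 1, with log2 folds from -0.90 for Wt1 to -0.72 for Kirrel (highest limma adjusted p = 0.015), where 29.7% of all genes were lower. Without sham day-3 replicate 3 the calls of Wt1 (limma adjusted p = 0.057) and Podxl (0.06) ended, as that of Podxl did without sham day-1 replicate 1 (0.056). Only Wt1 was lower in sham kidneys at day 21 than at day 1 (-0.70 ± 0.26, limma adjusted p = 0.043), where 27.2% of all genes were, and that call ended without each of the 6 libraries in turn (limma adjusted p between 0.061 and 0.13). No member differed between the sham groups of days 3 and 21 by limma at the threshold or at an unadjusted p under 0.05, and 0.034% of all genes did at the threshold.

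In order of mean level, day-21 UIR kidneys were highest for each of the 7 genes. Mean Tcf21 was 94.6 ± 6.085 FPKM (SD, n = 3) in UIR kidneys at day 21, followed by 18.1 ± 5.60 in UIR kidneys at day 3, then sham kidneys at 9.80 ± 1.72, 9.18 ± 0.51 and 7.82 ± 4.70 on days 1, 21 and 3, and lowest were UIR kidneys at day 1 with 4.71 ± 1.38. For Tcf21 no pair among the 3 sham groups differed past the threshold with all libraries, but day 3 was lower than day 1 without sham day-3 replicate 2 (-0.81, limma adjusted p = 0.0098, against -0.40, 0.27, with it). For Kirrel the order was UIR day 21 (22.0 ± 1.69 FPKM), UIR day 3 (15.8 ± 0.62), UIR day 1 (4.84 ± 2.45) and sham days 1, 21 and 3 (3.16 ± 0.215, 2.05 ± 0.52 and 1.55 ± 0.44). Nphs1 spanned less, from 14.55 ± 1.39 FPKM in UIR kidneys at day 21 to 5.06 ± 1.46 FPKM in sham kidneys at day 3. Between these lay UIR day 3 (7.46 ± 0.45), sham day 1 (6.84 ± 0.82), UIR day 1 (6.73 ± 1.865) and sham day 21 (5.49 ± 0.88), and the ranges of UIR day 1 and sham day 1 overlapped that of UIR day 3.

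The genes did not change by equal amounts, which can be seen from their levels per unit of nephrin transcript in the same library. Podxl per Nphs1 was 7.78 to 9.11 in UIR kidneys at day 21, inside the sham range of 7.61 to 9.54, and 7.05 to 7.48 at day 3, against 6.53 to 7.46 in sham kidneys. Kirrel per Nphs1 was 1.48 to 1.57 in UIR kidneys at day 21, against 0.303 to 0.427 in sham kidneys, and 1.94 to 2.28 at day 3, against 0.287 to 0.332. Tcf21 per Nphs1 was 6.26 to 6.71 in UIR kidneys at day 21, against 1.54 to 1.98 in sham kidneys, and at day 1 it was 0.583 to 0.815, against 1.36 to 1.52. Thus Podxl kept its proportion to Nphs1 at day 21 within the sham spread, whereas the Kirrel and Tcf21 ratios lay outside it. Synpo per Nphs1 (3.86 to 4.05 in UIR kidneys, against 1.96 to 2.47 in sham kidneys), Wt1 per Nphs1 (1.79 to 1.98, against 0.957 to 1.13) and Ptpro per Nphs1 (0.831 to 1.1, against 0.522 to 0.591) were also separate at day 21. With 3 against 3 libraries an exact two-sided permutation test of a ratio cannot give a p below 0.1, so these ratios are described without a test.

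**Figure D3:**
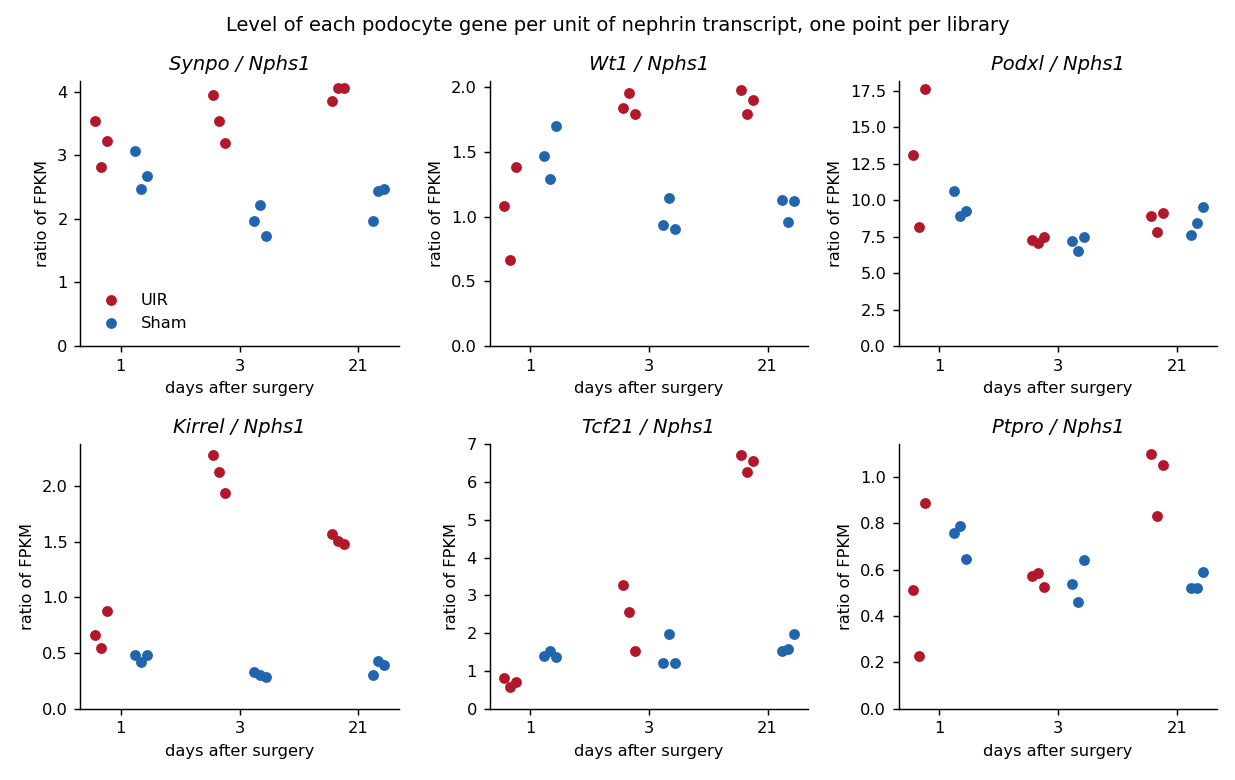
Ratio of the FPKM of 6 podocyte genes to that of Nphs1 (vertical axes, linear, from 0) in each library by days after surgery, UIR in red and sham in blue, 3 per group. Podxl per Nphs1 overlaps between UIR and sham kidneys on all 3 days, while Kirrel and Tcf21 per Nphs1 are separate at day 21.

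Within groups the 7 genes varied together. In UIR day-1 replicate 3 and in sham day-3 replicate 2, all 7 lay above their group mean, by a mean of 0.65 and 0.44 on the log2(FPKM + 1) scale, and in UIR day-1 replicates 1 and 2 and sham day-3 replicates 1 and 3 all 7 lay below it. Sham day-21 replicate 2 had all 7 above (mean 0.16) and replicate 3 all 7 below (-0.13). Endothelial genes deviated the same way in the sham libraries named here, with a mean deviation of 0.43 in sham day-3 replicate 2 and 0.37 in sham day-21 replicate 2, but only 0.12 in UIR day-1 replicate 3. In those libraries, in that order, fibroblast genes deviated by 0.32, 0.22 and 0.06 and mesangial and pericyte genes by 0.17, 0.12 and 0.15. Proximal tubule genes deviated by -0.08, -0.1 and -0.76. The part of these genes in the podocyte values was not tested. Tcf21 differed from the rest within UIR day 3, where its 22.78, 19.6 and 11.89 FPKM went with sums of fibroblast and myofibroblast genes of 573.7, 414.8 and 212.9 FPKM, while the other 6 genes stayed within 0.108 of their group means on the log2 scale. Sums of macrophage (853.5, 624.1 and 349.7 FPKM), mesangial (422.9, 259.9 and 190.4) and endothelial genes (314.6, 253.2 and 203.7) fell in the same order. So did those of proximal tubule genes (1036.4, 1035.9 and 848.8 FPKM) and of distal genes (1001.4, 976.5 and 798.3). The part of stromal or other cells in Tcf21 was not tested.

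**Figure D4:**
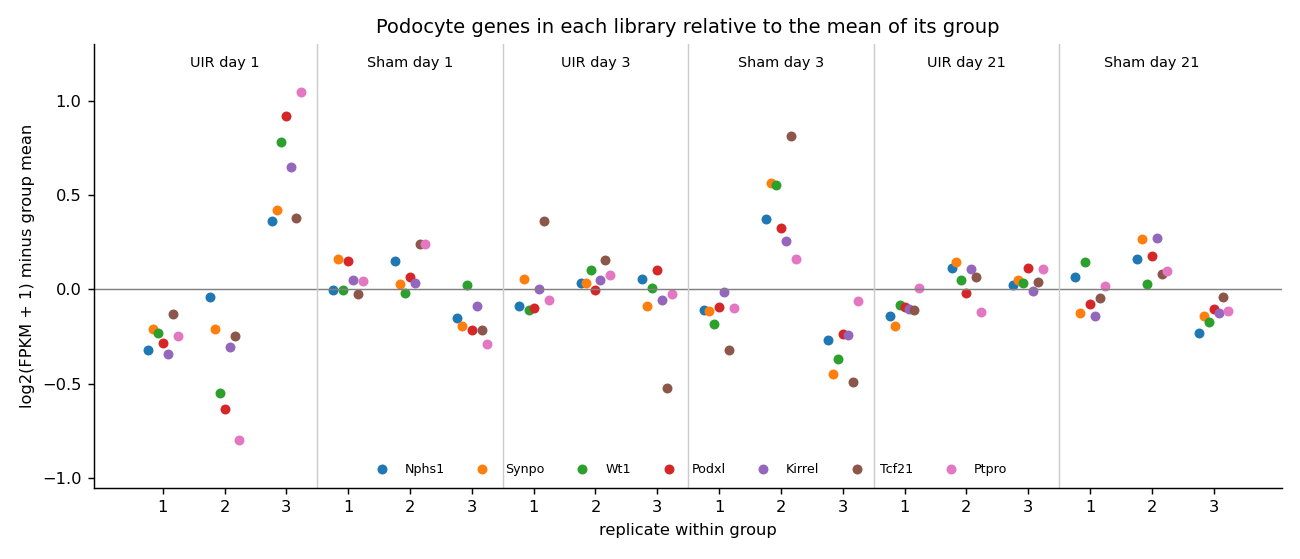
Deviation of each podocyte gene from its group mean on log2(FPKM + 1) (vertical axis) in each of the 18 libraries (horizontal axis, replicate number within UIR and sham groups by day), with a colour for each gene. All 7 points lie above 0 in UIR day-1 replicate 3 and sham day-3 replicate 2, and the UIR points of day 21 lie within 0.193 of 0.

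The 7 genes moved together at day 21 but by unequal amounts, so the stretch around the transcription start is shown for 4 of them. These were taken from a RefSeq promoter table. Synpo, Wt1 and Podxl were left out, which does not mean that the promoter table holds no entry for them. The stretches shown are of GRCm38.p6, another build than the one named for the deposited values. Each runs from 250 bases before to 50 bases after the start, on the strand given, with capitals marking any GC box (letters GGGCGG), any stretch of the letters CCAAT, and any E-box (letters CANNTG, the hexamer bound by basic helix-loop-helix factors such as Tcf21), on both strands.
Nphs1, chr7:30459808-30460107, plus strand: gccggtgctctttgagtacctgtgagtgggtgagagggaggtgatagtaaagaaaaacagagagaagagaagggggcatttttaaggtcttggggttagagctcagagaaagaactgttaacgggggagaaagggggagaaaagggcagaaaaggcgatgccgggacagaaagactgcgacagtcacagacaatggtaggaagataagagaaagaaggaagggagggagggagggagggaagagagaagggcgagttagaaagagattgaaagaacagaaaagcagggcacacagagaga
Kirrel, chr3:87174488-87174787, minus strand: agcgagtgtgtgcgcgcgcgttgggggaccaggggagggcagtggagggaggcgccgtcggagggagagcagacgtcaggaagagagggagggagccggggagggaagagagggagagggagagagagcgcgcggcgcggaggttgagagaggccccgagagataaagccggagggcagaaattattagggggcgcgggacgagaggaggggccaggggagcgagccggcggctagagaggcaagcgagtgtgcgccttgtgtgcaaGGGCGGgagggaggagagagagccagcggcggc
Tcf21, chr10:22820094-22820393, minus strand: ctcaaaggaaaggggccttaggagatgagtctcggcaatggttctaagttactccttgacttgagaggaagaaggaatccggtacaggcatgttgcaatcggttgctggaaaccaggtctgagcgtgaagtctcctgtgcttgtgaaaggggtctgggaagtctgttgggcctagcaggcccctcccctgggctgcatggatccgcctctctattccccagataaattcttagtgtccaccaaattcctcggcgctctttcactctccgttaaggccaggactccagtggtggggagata
Ptpro, chr6:137252049-137252348, plus strand: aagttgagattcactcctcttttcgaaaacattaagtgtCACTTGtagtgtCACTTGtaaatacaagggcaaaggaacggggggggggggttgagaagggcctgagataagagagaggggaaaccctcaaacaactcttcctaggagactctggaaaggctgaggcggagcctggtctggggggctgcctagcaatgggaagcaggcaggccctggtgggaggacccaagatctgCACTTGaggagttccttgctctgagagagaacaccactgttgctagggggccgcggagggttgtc
Kirrel held 1 GC box and 28 CG dinucleotides at 69.3% G and C, against 6 in Nphs1 (49.7%), 8 in Tcf21 (53.3%) and 5 in Ptpro (54.7%), where the median promoter of the table held 7 at 52.7%. Ptpro held 3 E-boxes with the same letters, and the other 3 stretches held none, where 72.3% of the 32851 promoters in the table hold an E-box, 35.7% a GC box and 37.4% the letters CCAAT, which none of the 4 held. The 9-base letters GCGTGGGCG (0.612% of promoters) and GCGGGGGCG (2.91%), which WT1-type zinc fingers are known to bind, were in none of the 4. Such a match or its absence describes these letters in this window only.

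Other genes of podocytes and the glomerular filter were taken from 5 lists of 64 genes, of which 62 were tested. At day 1, 25 were higher and 20 lower in UIR kidneys, at day 3, 41 and 6, and at day 21, 51 and 8, with median log2 folds of 0.11, 0.85 and 1.21, against -0.03, 0.44 and 0.53 over all genes. Of all genes tested, 28.5% were higher and 31.1% lower at day 1, 57.6% and 17.9% at day 3, and 60.7% and 20.1% at day 21. The day-1 counts without UIR day-1 replicate 3 were 20 higher and 22 lower of 62 (35.5% lower, against 31.8% of all genes). These shares also stand behind the counts of the single lists. Several lie near them, such as the transcription regulators at day 1, with 3 higher and 3 lower of 10. Many of these genes are also made in tubules, vessels or stroma.

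Slit diaphragm and junction genes, 12 tested, were higher in 5, 8 and 10 cases and lower in 4, 0 and 1 at days 1, 3 and 21. The protocadherin-like Fat1 (log2 fold 2.77), the tight junction scaffold Tjp1 (1.86) and the nephrin-binding adaptor Cd2ap (1.70) led at day 3, and the Neph family gene Kirrel3 (2.28), Tjp1 (1.84) and Fat1 (1.80) at day 21. Kirrel3 averaged 4.35 ± 0.276 FPKM in UIR kidneys at day 21 and 0.103 ± 0.0416 FPKM in sham kidneys (SD, n = 3 each). At day 1 the adaptor Nck2 (1.2), the polarity protein Pard6b (1.00) and Cd2ap (0.83) rose, and the polarity protein Crb2 (-0.90) and the adaptor Nck1 (-0.61) were among those that fell. Pard3 fell at day 21 (-0.32). Kirrel2 and Trpc6 stayed below 1 FPKM in all libraries and were not tested.

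Of 14 cytoskeletal genes, 8, 10 and 11 were higher and 5, 0 and 1 lower at the 3 days. The intermediate filament vimentin (Vim, 5.09 at day 3 and 4.37 at day 21), the cytokinesis protein Anln (4.39 at day 3), nestin (Nes, 2.84 and 2.64) and the formin Inf2 (1.78 at day 1 and 2.65 at day 21) had large increases. Vim also marks mesenchymal cells and injured tubules, and Anln dividing cells. The membrane linker Ezr rose most at day 1 (2.48), with Inf2 and Vim (1.66), while dendrin (Ddn, -1.3), the podocalyxin-linked scaffold Slc9a3r2 (-1.18) and the Rac regulator Arhgap24 (-0.87) fell. Arhgap24 was also lower at day 21 (-0.74).

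All 10 transcription regulators rose at day 21, after 6 at day 3 and 3 at day 1, when 3 others fell. The forkhead factors Foxc1 (2.12) and Foxc2 (1.95) were among the largest rises at day 21. The Hippo effector Tead1 (1.46), the cell cycle inhibitor Cdkn1c (1.12) and Foxc1 (1.10) led at day 3. At day 1, Tead1 (1.01), Hey2 (0.56) and Foxc1 (0.54) rose, and Foxc2 (-0.39) and Lmx1b (-0.38) were among those that fell.

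Basement membrane and adhesion genes, 11 in number, were higher in 5, 9 and 9 cases and lower in 4, 2 and 2. The integrin subunit Itga3, partner of the glomerular laminin, rose at all 3 days (2.29, 3.06 and 2.16), with Itgb1 (1.40) and the tetraspanin Cd151 (0.64) at day 1, agrin (Agrn, 2.35 and 2.00) at days 3 and 21, dystroglycan (Dag1, 1.97) at day 3 and the laminin chain Lamb2 (1.99) at day 21. The collagen IV chains Col4a3 (-1.3, -1.54 and -0.61) and Col4a4 (-0.93, -0.95 and -0.90) fell at all 3 days. Their partner Col4a5 fell at day 1 (-0.68) and rose at days 3 (1.27) and 21 (1.16). Col4a3 averaged 27.7 ± 2.00 FPKM in UIR kidneys at day 21 and 43.2 ± 7.30 FPKM in sham kidneys (SD, n = 3 each). These 3 chains form the mature glomerular basement membrane and are present in distal tubule basement membranes as well.

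Of 15 surface, secreted and signalling genes, 4, 8 and 11 were higher and 4, 4 and 4 lower. Podoplanin (Pdpn), a mucin-like protein of podocytes and lymphatic vessels, rose at all 3 days (1.5, 3.22 and 3.54), and the ephrin Efnb1 at days 3 and 21 (1.47 and 1.69). The endosulfatase Sulf1 (0.47 at day 1 and 2.39 at day 21), the phospholipase receptor Pla2r1 (0.58 at day 1) and the metalloendopeptidase Mme (0.90 at day 3) completed the largest increases. The angiogenic factor Vegfa, made by podocytes and tubules, fell at all 3 days (-0.77, -1.3 and -0.89), as did Bmp7 (-0.88, -0.84 and -1.08). Further decreases were the peptidase Dpp4 at day 1 (-0.81), the receptor kinase Mertk at day 3 (-0.56) and Ildr2 at day 21 (-0.86).

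Most listed genes of several other cell types were also higher at day 21, when 60.7% of all genes tested were. Their part in the podocyte results was not tested. At day 21, 12 of 13 endothelial genes were higher in UIR kidneys (summed level 561.6 to 596.5 FPKM, against 194.3 to 302.4 FPKM in sham kidneys), with Pecam1 at a log2 fold of 1.59 and Cdh5 at 1.52. Of mesangial and pericyte genes 9 of 10 were higher and 1 lower (348.5 to 370.9 FPKM, against 126.4 to 148.6 FPKM), with Pdgfrb at 2.74 and Itga8 at 1.46. Fibroblast and myofibroblast genes were higher in 11 of 12 cases (1369.3 to 1514.7 FPKM, against 51.2 to 73.2 FPKM), with Pdgfra at 3.40 and Dcn at 4.18. The mesangial median of 2.04 lay near the podocyte median of 2.06, the endothelial median of 1.29 lay between that and the all-gene median of 0.53, and the fibroblast median was 3.85. All 11 macrophage genes were higher (3455.7 to 4846.6 FPKM, against 56.2 to 69.5 FPKM), with Adgre1 at 4.52 and Cd68 at 5.42.

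Parietal epithelial cells line the capsule around the glomerulus, and 8 of 9 genes of that list were higher and 1 lower at day 21 (589.5 to 614 FPKM, against 208 to 233.9 FPKM), with Cldn1 at 2.78 and Pax2 at 1.24, though the list is shared with injured tubules. Tubule genes moved the other way. All 12 proximal tubule genes were lower at days 3 and 21, with sums of 848.8 to 1036.4 FPKM in UIR kidneys, against 50799.5 to 59341.9 FPKM in sham kidneys, at day 3, and 274.4 to 1530 FPKM, against 40973.8 to 47456.5 FPKM, at day 21. Slc34a1 had log2 folds of -4.34 and -5.33 and Lrp2 of -1.79 and -4.54 on those days. Of 10 thick limb, distal tubule and collecting duct genes, 7 were lower at each of these days, Umod (-0.49 and -0.66) among them, and Slc12a1 was not past the threshold (-0.08 and 0.60). All 6 injured tubule genes were higher on every day, with Havcr1 at 2.17, 8.44 and 4.44 and Lcn2 at 3.76, 6.08 and 7.24.

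At day 3, 57.6% of all genes tested were higher and 17.9% lower, with a median log2 fold of 0.44. Of endothelial genes 5 of 13 were higher (median 0.26), Pecam1 (1.11) and Cdh5 (1.3) among them. Kdr (-0.36), Ehd3 (-0.36), Tek (-0.06) and Flt1 (-0.03) were below 0, short of the threshold. Higher were also 8 of 10 mesangial and pericyte genes (median 1.27, Pdgfrb 1.28, Itga8 0.65). Of fibroblast genes 11 of 12 were higher (1.99, Pdgfra 0.74, Dcn 0.98). So were 11 of 11 macrophage (2.71, Adgre1 2.26, Cd68 2.95) and 8 of 9 parietal genes (2.77, Cldn1 4.59, Pax2 1.62). None of these lists had a gene called lower. At day 1, 1 endothelial gene was higher and 5 were lower (median -0.08), and the mesangial (3 higher, 1 lower, 0.07), fibroblast (1 and 1, -0.27) and macrophage lists (3 and 3, -0.02) also had medians near 0, with Cdh5 (0.79) and Cd68 (0.70) higher, while Pecam1 (-0.08), Pdgfrb (-0.42), Itga8 (0.15), Pdgfra (-0.20), Dcn (-0.44) and Adgre1 (-0.44) were not past the threshold. Leaving out UIR day-1 replicate 3, the counts higher and lower were 2 and 5 for the endothelial, 3 and 2 for the mesangial, 1 and 3 for the fibroblast and 3 and 3 for the macrophage list. With all libraries, 28.5% of all genes tested were higher and 31.1% lower at day 1. Of the parietal genes 7 of 9 were higher (median 1.02), with Cldn1 at 1.02 and Pax2 at -0.07, short of the threshold. The proximal tubule list had 4 of 12 lower at day 1 (median -0.66), and 2 of 12 without UIR day-1 replicate 3 (median -0.35). Slc34a1 (-0.45) and Lrp2 (-0.90) were not past the threshold with all libraries. Summed levels were separate, 8412.5 to 13813.5 FPKM in UIR kidneys, against 21634.8 to 29882.5 FPKM in day-1 sham kidneys. Set against the later sham kidneys, 11 of 12 were lower in day-1 UIR kidneys (median -1.94), where 32% of all genes were. Without UIR day-1 replicate 3 it was also 11 of 12 (median -1.53). The distal list had 5 of 10 lower and 2 higher against day-1 sham kidneys (-0.44). Among these genes Slc12a1 was at -1.26 and Umod at 0.36, the second not past the threshold.

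**Figure D5:**
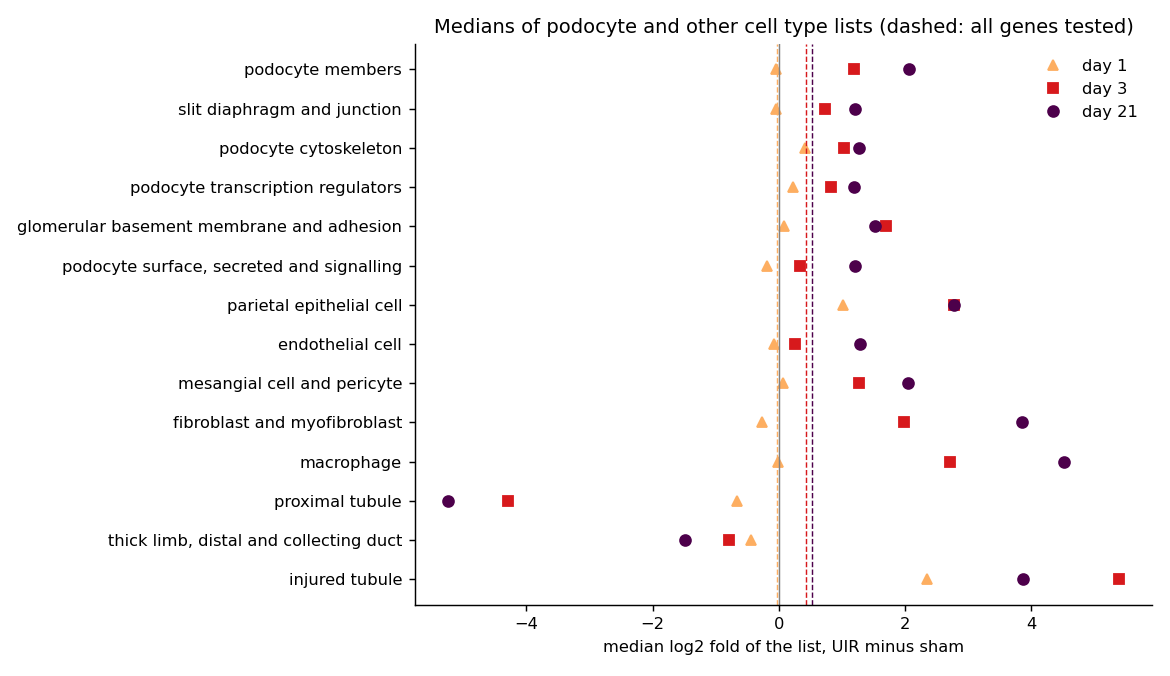
Median log2 fold, UIR minus sham (horizontal axis), of the tested genes of each list (rows) at day 1 (triangles), day 3 (squares) and day 21 (circles), with the medians of all 14716 genes as dashed lines. The podocyte genes at the top move from -0.04 at day 1 to 2.06 at day 21, near the mesangial list, and the proximal tubule list moves to -5.24.

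The genes whose pattern over the 18 libraries was most like the mean of the 7 standardized podocyte genes were Nlgn2 (Pearson r = 0.977), Cdc14a (0.970), Mrgprf (0.968), Fzd2 (0.967), Flrt2 (0.966), Gpr157 (0.965), Sncaip (0.964), Zcchc24 (0.964), Rassf9 (0.963) and Serpini1 (0.963), of 13470 genes ranked. The libraries fall into groups, so such values mostly describe group means, and 4.03% of the genes ranked had an r of 0.9 or higher. Nlgn2, a synaptic adhesion protein gene, averaged 22.9 FPKM in UIR kidneys at day 21 and 1.59 FPKM in sham kidneys. The members themselves had r between 0.87 (Podxl) and 0.98 (Nphs1, Synpo and Wt1) with the mean that they form.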

How the data were processed

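RNA of whole kidney was sequenced in 18 libraries, 3 per group. The deposited table holds FPKM values made by the authors for 20825 genes, and per the submitters' processing notes the tools were RSEM 1.2.12, HISAT2 2.0.4 and Bowtie2 2.2.5 with mm9 as the build, with no role stated for any. Columns were assigned to libraries by sample title. Read counts are not used here, so depth per library is unknown and no counting interval is given. Symbols stored as dates (27) were restored by Entrez ID.

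From the FPKM values, log2(FPKM + 1) was fitted with limma 3.58.1 in R 4.3.3 (group means, 12 residual degrees of freedom, variance trend, two-sided) for the 14716 genes with at least 1 FPKM in at least 3 libraries. The fit was run on simulated data with independent noise for each gene and a change in few genes of a single group. That run cannot show how the fit performs where most genes differ or genes of a library deviate together, as in these data. Folds on this scale understate changes of low genes. Alternatives were other pseudocounts, filters, scalings, weights and library subsets. The podocyte genes, the lists and the later-sham control were chosen with earlier results of these data known. Named genes are the 7 members, the 3 largest changes per direction and day in each podocyte list, the first 2 genes of each other list and 10 genes of like pattern. Ddn and Col4a5 at further days were added after their values were seen. Some genes that this rule names are not reported here. Replicate numbers did not pair the libraries.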

Additional observations from a re-analysis of the deposited data

Results flagged for a closer look

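By limma's test of the difference of the effects on log2(FPKM + 1), the UIR effect differed between days 1 and 21 for every podocyte gene in the main fit. Among all genes tested the later effect was called higher for 54.1% between days 1 and 21. The share was 50.1% between days 1 and 3 and 26.1% between days 3 and 21. Median differences over all genes were 0.51, 0.44 and 0.06 for these pairs of days, in that order. Between days 1 and 3 the later effect was higher by 1.19 ± 0.31 for Synpo, 1.86 ± 0.37 for Wt1, 2.32 ± 0.29 for Kirrel and 2.12 ± 0.40 for Tcf21 (SE; highest limma adjusted p = 0.0032). Between days 3 and 21 it was higher by 0.76 ± 0.25 for Nphs1, 0.78 ± 0.31 for Synpo, 2.04 ± 0.40 for Tcf21 and 1.46 ± 0.42 for Ptpro (highest limma adjusted p = 0.049). The Synpo difference was past the threshold in 9 of 23 alternatives, and that of Nphs1 ended without sham day-3 replicate 2 (0.57, limma adjusted p = 0.054) or sham day-21 replicate 3 (0.645, 0.055). Between days 1 and 21 it was higher by 1.31 ± 0.25 for Nphs1, 1.97 ± 0.31 for Synpo, 2.60 ± 0.37 for Wt1, 1.10 ± 0.38 for Podxl, 2.51 ± 0.29 for Kirrel, 4.16 ± 0.40 for Tcf21 and 2.44 ± 0.42 for Ptpro (highest limma adjusted p = 0.017). The Podxl difference between days 1 and 21 fell short of the threshold after median-of-ratios scaling (0.445, limma adjusted p = 0.3). It also did so without UIR day-1 replicate 2 (0.788, limma adjusted p = 0.051). Tcf21 was lower in UIR kidneys at day 1 and higher at days 3 and 21. No formal search for single outlying values was made in groups of 3 libraries. UIR day-1 replicate 3 was singled out after its values were seen, and each library was left out in turn.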

How the results depend on the processing

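The count of 7 members past the threshold at day 21 stayed at 7 in every alternative run. Leaving out each library in turn gave 1 to 3 members at day 1, 4 to 6 at day 3, 7 to 7 at day 21, 4 to 7 between the effects of days 1 and 3, 2 to 4 between days 3 and 21, 6 to 7 between days 1 and 21, 2 to 6 between sham days 3 and 1, 0 to 1 between sham days 21 and 1, 0 to 0 between sham days 21 and 3, and 4 to 5 for UIR day 1 against later sham. The day-1 count was 2 after quantile normalization and 3 with library weights, with 8808 and 8769 calls over all genes, against 8770. With these weights 7 members were called between the effects of days 1 and 3 and between sham days 3 and 1. Over all genes these weights raised the calls from 9253 to 10014 and from 6258 to 8337. Between sham days 21 and 1, 1 member was called. The count was 0 without the filter, after quantile normalization and after median-of-ratios scaling. It was 2 at a mean of at least 5 FPKM and in TPM, and 5 with library weights and with the compared groups alone. In the last 2 settings the calls over all genes rose from 5804 to 7997 and to 6233. Among single genes, Nphs1 at day 3 turned to -0.11 after quantile normalization (limma adjusted p = 0.55), and Ptpro in UIR day 1 against later sham to -0.36 without UIR day-1 replicate 3 (0.038), against 0.56 without replicate 2 (0.043). With the replicate number as a block the sham day 21 minus day 1 count was 0, and the day-3 call of Podxl ended (limma adjusted p = 0.056); libraries of 1 number did not deviate together (r from -0.07 to 0.11 over genes), so the numbers are not taken as pairs. The cause of these shifts was not tested. Depth is unknown, which limits what can be said of genes near 1 FPKM.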

Other observations

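Some genes of the wider podocyte lists passed through a fall before a rise. Of the 20 that were lower in UIR kidneys at day 1, 14 were higher at day 21 and 5 lower, where of the 4583 genes lower at day 1 among all genes 37.6% were higher at day 21 and 40.2% lower. The share was not tested. Examples on the log2(FPKM + 1) scale were the scaffold Slc9a3r2 (-1.18 at day 1 and 1.39 at day 21), agrin (Agrn, -0.51 and 2.00) and dendrin (Ddn, -1.3 and 1.14). Ddn, a podocyte protein that binds nephrin partners, had 1.09, 0.31 and 3.21 FPKM in UIR kidneys at day 1, against 4.76, 4.61 and 4.36 FPKM in sham kidneys, and 8.52, 11.73 and 8.97 FPKM at day 21, against 4.61, 3.64 and 3.36 FPKM. The 5 lower at both days were Arhgap24, Col4a3, Col4a4, Vegfa and Bmp7. The counts without UIR day-1 replicate 3 were chosen after seeing the data. These genes were picked for this pattern, which is described here without an explanation.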
